A study of Oryza sativa with 8 samples.

Results

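The chromosome ends examined here are the outermost 1 Mb of the rice chromosomes, described by ATAC-seq peaks. This assay uses a transposase, Tn5, that inserts sequencing adapters into open chromatin. Peaks on chromosomes 1 to 12 were assigned to an end by position alone, when their midpoint lay within 1 Mb of position 0 (a start end) or within 1 Mb of the largest peak end found on that chromosome in the 4 lists of a cultivar (a far end). The first 1 Mb of chromosomes 11 and 12 was left out, since these short-arm tips are near-identical copies of each other in rice. This gave 10 start ends and 12 far ends, 22 in each cultivar. They held 16258 of the 243803 chromosomal peaks of the 8 lists (6.67%), with 1332 to 2515 peaks per list, on 5.90% of the chromosomal length in Nip and 5.67% in 93-11. All remaining bases beyond the terminal windows are called the interior, 348.9 Mb in Nip and 363.8 Mb in 93-11.

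The libraries came from aerial parts of 3-week-old seedlings of a japonica cultivar, Nipponbare (Nip), and of an indica cultivar, 93-11, grown in culture solution under short days. Normal seedlings received no heat, and heat stress (HS) seedlings were kept at 45 °C for 36 h, at a relative humidity above 80% and a light of 60 to 80 against 800 μmol per square metre and second during growth. What light and humidity Normal seedlings had in those hours is not stated, so HS stands for the whole treatment, whose components cannot be told apart. There were 2 libraries in each of the 4 groups, called biological replicates in the methods. The tissue is a mixture of cell types, so fewer cells with an open site and less opening per cell cannot be told apart.

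A plant chromosome ends in an array of short telomeric repeats, and the chromatin next to it is called subtelomeric. In rice the outer parts of the arms are rich in genes and the regions around the centromeres are rich in transposable elements. Open chromatin in plants often lies at gene promoters and at other regulatory sequence, so peak density along an arm usually follows gene density. Reads from repeats are often lost to mapping filters, which leaves the extreme tips poorly covered in short-read data.

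The peak lists do not state the depth. A background rate of each list, which follows depth times fragment length and was recovered from the deposited values, was 5.26 ± 0.0650 (SD, n = 2) in Nip Normal, 6.82 ± 0.0399 in Nip HS, 6.39 ± 0.397 in 93-11 Normal and 4.53 ± 0.180 in 93-11 HS. The rate thus moved with the condition, upward in Nip and downward in 93-11, and its part in any HS change of peak number was not tested. The lists held 22684 to 36743 chromosomal peaks. Position on the 2 cultivars' sequences is not shared, and ends are matched below only by chromosome name and by side.

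Whether chromosome ends were more open than the interior was examined through the number of peaks per Mb. In Nip Normal the ends held 101.2 and 96.1 peaks per Mb in replicates 1 and 2, and the interior 83.0 and 78.1. In Nip HS the ends held 113.7 and 114.3 and the interior 96.2 and 97.4. In 93-11 Normal the ends held 94.0 and 91.8 and the interior 80.6 and 78.1. The ends were thus the denser part in each of these 6 libraries. In 93-11 HS the ends held 67.3 and 60.5 peaks per Mb and the interior 64.2 and 58.4, a much smaller excess. The log2 ratio of ends to interior averaged 0.26 in Nip, 0.14 in 93-11 and 0.20 over the 8 libraries, and it was positive in 8 of 8 (exact two-sided sign-flip permutation test over libraries, p = 0.00781, the smallest possible). With windows of 0.5 Mb the pooled ratio was 0.13 (permutation p = 0.0234), and in 93-11 it was 0.10 and no longer positive in each library. Libraries of a cultivar share a genome, so this p covers the spread between libraries and not between chromosomes.

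**Figure D1:**
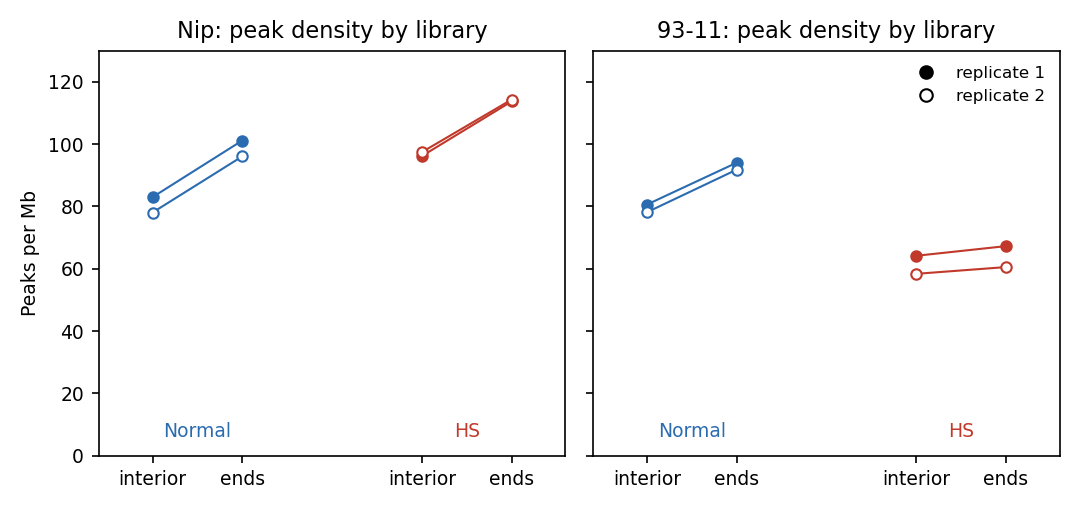
Peaks per Mb (linear axis from 0) in the interior and in the terminal 1 Mb windows, with 1 line per library, blue for Normal and red for HS, filled circles for replicate 1 and open circles for replicate 2. Each line rises from interior to ends, and the lines of 93-11 HS are nearly flat, from 64.2 to 67.3 and from 58.4 to 60.5.

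The excess depended on what the ends were compared with. The adjoining second Mb was denser than the terminal Mb in both cultivars, with means of 100.8 against 98.6 peaks per Mb in Nip Normal and of 95.3 against 92.9 in 93-11 Normal. Against that second Mb the log2 ratio of the ends was -0.075 over the 8 libraries and negative in each (exact sign-flip permutation p = 0.00781). Against the stretch from 1 to 5 Mb it was 0.012, within the spread between libraries (exact sign-flip permutation p = 0.602). The terminal Mb was therefore denser than the chromosomes as a whole, but not denser than the outer arms it belongs to.

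Under Normal conditions density fell along the arm, though not evenly. Relative to the interior of the same library, the mean density in Nip Normal was 1.23 in the first Mb, 1.25 in the second, 1.15 in the third and 0.877 in the tenth. In 93-11 Normal it was 1.17 in the first Mb, 1.08 in the third, 1.05 in the fourth, 1.13 in the fifth and 0.967 in the tenth. In 93-11 HS it was 1.04 in the first Mb, 1.14 in the second, 1.15 in the fifth, the highest, and 0.982 in the tenth. The eighth Mb of 93-11 stood at 1.12 under Normal and 1.11 under HS. Normal and HS of 93-11 differed most in the first Mb, next in the second and then in the fourth. In the other bins their means lay close together. In both cultivars the second Mb stood highest of the 10 under Normal conditions.

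**Figure D2:**
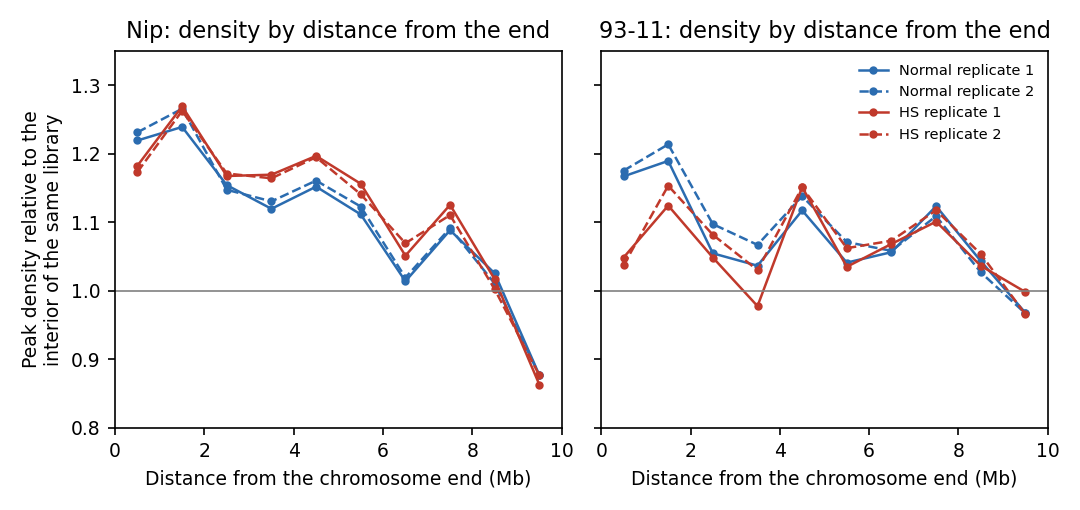
Peak density in 1 Mb bins against distance from the chromosome end (Mb), divided by the interior density of the same library, with Normal in blue, HS in red, replicate 1 as solid and replicate 2 as dashed lines. The first bin of 93-11 lies between 1.17 and 1.18 under Normal and between 1.04 and 1.05 under HS, and its second bin lies between 1.12 and 1.21 over the 4 libraries.

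The outermost 100 kb was thinner in peaks than the next 100 kb in Nip and in 93-11 Normal, but not in 93-11 HS. In the first 100 kb Nip Normal had 75.7 ± 5.46 peaks per Mb (SD, n = 2), against 110.7 ± 8.68 in the next 100 kb, a difference larger than the spread between replicates. In Nip HS the means were 84.3 and 120.2. The first 100 kb of 93-11 Normal had 90.0 ± 2.57, against 96.8 ± 2.57 in the next, and in 93-11 HS the order was the opposite, with 62.5 ± 6.75 against 54.5 in both libraries. A start end is counted from position 0 and a far end from the last peak, so a stretch with no peak at the tip lowers only the start ends. The first peak of a chromosome began between 5081 and 42918 bp in Nip and between 1273 and 28794 bp in 93-11. The outermost region with a peak in all 4 libraries had its midpoint at a median of 20.8 kb from the end in Nip (at most 130.5 kb over 22 ends) and 31.5 kb in 93-11 (at most 214.7 kb).

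Far ends were denser than start ends. Far ends held 106.9 peaks per Mb in Nip Normal, 123.3 in Nip HS, 97.0 in 93-11 Normal and 69.2 in 93-11 HS, and start ends 88.8, 102.8, 88.0 and 57.6. The log2 ratio of start to far ends was -0.23 over the 8 libraries and negative in 8 of 8 (exact sign-flip permutation p = 0.00781). Counting start ends from the first peak gave -0.24 in Nip and -0.18 in 93-11. Among the 10 chromosomes with both ends, the far end was the denser in all 4 libraries on 8 chromosomes in Nip and on 7 in 93-11, and the start end was denser in all 4 on 1 chromosome in each.

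Peak width did not set the ends apart. The median width at the ends was 355 and 347 bp in Nip Normal, 406.5 and 406 bp in Nip HS, 264 and 284.5 bp in 93-11 Normal, and 227 and 246 bp in 93-11 HS. The interior medians were 345 and 355, 404 and 401, 263 and 272, and 234 and 238 bp, in the same order. The difference of ends minus interior ranged from -8 to 12.5 bp and was positive in 6 of 8 libraries, and the mean log2 ratio of 0.014 did not pass the test (exact sign-flip permutation p = 0.344). Within the ends, far ends had wider peaks than start ends in Nip, with medians of 366.5 against 332 bp under Normal and 419.8 against 383.5 bp under HS. In 93-11 the far and start medians were 276.5 and 272 bp under Normal and 237.5 and 234 bp under HS. Peaks over 1000 bp made up 3.16% of the end peaks in Nip Normal, 4.76% in Nip HS, 0.958% in 93-11 Normal and 0.218% in 93-11 HS, against 2.96%, 4.97%, 0.942% and 0.419% in the interior.

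Between ends and interior, covered length followed number. Under HS it changed more than number at the ends, by 29.7% against 15.6% in Nip and by -41.6% against -31.2% in 93-11. Peaks covered 41.5 kb per Mb at the ends and 33.3 kb in the interior of Nip Normal, and 53.8 and 45.6 kb in Nip HS. In 93-11 they covered 30.5 and 25.7 kb under Normal and 17.8 and 17.3 kb under HS. The ratio of ends to interior was therefore 1.25 and 1.18 in Nip and 1.18 and 1.03 in 93-11, for Normal and HS respectively.

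The strength of end peaks was described by rank, since the deposited −log10 p rises with depth. The median end peak lay at percentiles 50.7 and 50.3 of the list in Nip Normal, 49.4 and 49.2 in Nip HS, 54.3 and 54.4 in 93-11 Normal and 56.2 and 55.7 in 93-11 HS, against 49.6 to 50.1 for the interior. End peaks of 93-11 thus ranked above the middle of the list in each library, and those of Nip lay near it. Over the 8 libraries the difference was 2.63 percentile points (exact sign-flip permutation p = 0.0859). Against the second Mb the end peaks ranked lower, by 3.31 points, and in 8 of 8 libraries (p = 0.00781 in the same permutation test). The pooled difference also turned to -2.22 among peaks of at least 4 times the background rate.

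When each list was divided into 4 classes by strength rank, the excess at the ends was uneven. The classes were near equal in size except in 93-11 HS. There the interior of replicate 1 held 14.7 peaks per Mb of the weakest class and 17.6 of the next. In Nip Normal the density ratio of ends to interior was 1.17 ± 0.0319 (SD, n = 2) for the weakest class, 1.25 ± 0.0140 and 1.37 ± 0.0250 for the middle classes and 1.12 ± 0.0122 for the strongest. In 93-11 Normal it was 1.01 ± 0.0256, 1.15 ± 0.0443, 1.28 ± 0.0347 and 1.25 ± 0.0292 in that order. In 93-11 HS the weakest class was scarcer at the ends than in the interior, at 0.861 ± 0.0115, and the strongest was denser there, at 1.21 ± 0.0419. In Nip HS the ratios were 1.13 ± 0.0392, 1.28 ± 0.0363, 1.26 ± 0.0235 and 1.05 ± 0.00103.

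To follow the response of the ends to HS, peak numbers of Normal and HS were compared by cultivar. In Nip the 22 ends held 2226 and 2114 peaks under Normal and 2502 and 2515 under HS, a rise of 15.6%. In 93-11 they held 2069 and 2020 peaks under Normal and 1480 and 1332 under HS, a change of -31.2%. Normal and HS libraries were fully separated in both cultivars (log2 change of 0.21 and -0.54, exact two-sided permutation p = 0.333 for each, the smallest 4 libraries can give). The sign of both changes was that of the change in background rate. With only the 10000 strongest peaks per list retained, the Nip change at the ends was -0.13. That setting fixes the list total, so a list-wide rise cannot appear in it and the value shows only the share at the ends. Among peaks of at least 4 times the background the change was 0.21 in Nip and -0.10 in 93-11.

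The interior provides a comparison within each library. The interior rose by 20.2% in Nip, more than the ends, and changed by -22.8% in 93-11, less than the ends. Relative to the interior, the ends were therefore less dense under HS in both cultivars. The ratio of ends to interior was 1.22 and 1.23 in Nip Normal and 1.18 and 1.17 in Nip HS, and 1.17 and 1.18 in 93-11 Normal and 1.05 and 1.04 in 93-11 HS. Normal and HS values of this ratio were separate, with a log2 change of -0.057 in Nip and -0.17 in 93-11 (exact two-sided permutation p = 0.333 for each, the smallest possible). The background rate rose under HS in Nip and fell in 93-11, and its part in the change of this ratio was not tested.

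The relative fall kept its direction under each of the 15 alternatives tried in each cultivar. Some of these could not or did not alter it. The replicate block cannot, and counting peaks with any base in the window left the value the same. Leaving out a library could not turn the sign, since Normal and HS libraries were separate. The fall ranged from -0.14 to -0.017 in Nip and from -0.23 to -0.090 in 93-11. The -0.017 came with 2 Mb windows, where the libraries overlapped (exact permutation p = 0.667). At 4 times the background it was -0.074 in Nip and -0.11 in 93-11, and against the second Mb -0.072 and -0.090. The fall in 93-11 exceeded that in Nip by 0.11 on the log2 scale, which the exact test of the condition labels within cultivars did not separate from the spread (36 assignments, permutation p = 0.333), and its direction turned among the 10000 strongest peaks, to 0.052. The difference was -0.032 at 4 times the background and -0.018 against the second Mb. Under Normal conditions the log2 ratio of ends to interior was lower in 93-11 than in Nip by 0.065, with no overlap of libraries (exact permutation p = 0.333). Yet the sign of this difference changed in 4 of 14 alternatives, to 0.017 at 4 times the background and 0.099 among the strongest peaks.

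The position of the change within the terminal Mb was read in steps of 100 kb. In 93-11 the number of peaks changed by -43.7% between 100 and 200 kb and by -41.2% between 200 and 300 kb, and by -20.4% between 800 and 900 kb. In Nip the rise was 8.62% between 100 and 200 kb and 24.2% between 500 and 600 kb. Beyond the terminal Mb the change was 21.6% and 22.1% from 1 to 2 and from 2 to 3 Mb in Nip and -26.9% and -23.6% at the same distances in 93-11. In 93-11 the largest losses of the 10 steps thus lay at 100 to 300 kb. In Nip the smallest rise also lay there, but the step from 700 to 800 kb rose by only 11.5%.

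**Figure D3:**
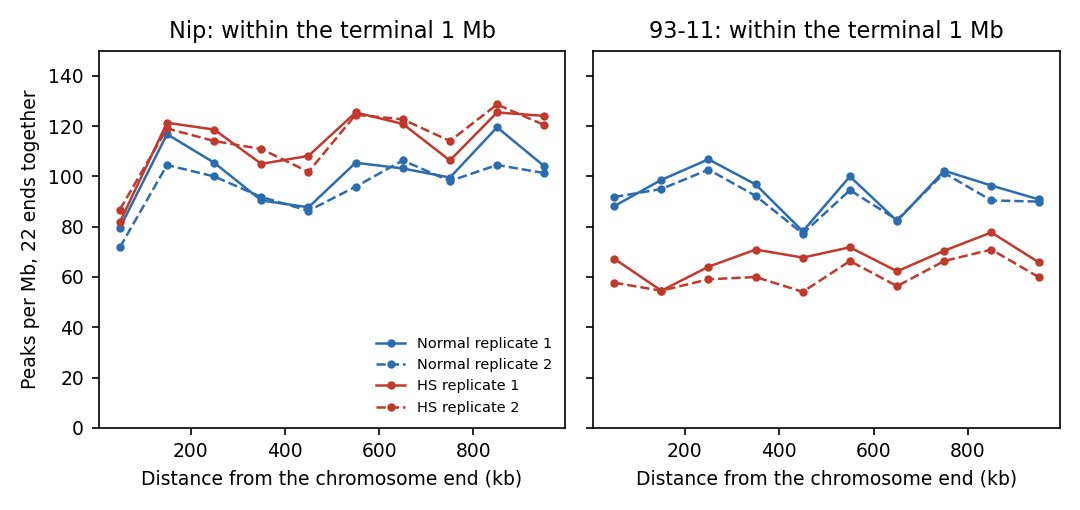
Peaks per Mb (linear axis from 0) in 100 kb bins within the terminal 1 Mb, summed over the 22 ends, with Normal in blue, HS in red, replicate 1 solid and replicate 2 dashed. In 93-11 the gap between Normal and HS is wide at 100 to 300 kb, where HS stands at 54.5 and 61.6 and Normal at 96.8 and 104.8.

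The ends were then examined one by one. Under Normal conditions an end held between 67 and 137 peaks in Nip (mean of 2 libraries, median 98) and between 57.5 and 136 in 93-11 (median 89.5), and the interior windows of 1 Mb had medians of 76.5 and 77.2. Among all 1 Mb windows the median end lay at percentile 69.8 in Nip and 66.2 in 93-11. In Nip, 14 of 22 ends exceeded the interior density of their own chromosome in all 4 libraries, against 42.0% of all 364 windows. In 93-11, 9 of 22 did so, against 32.6% of all 380 windows. Ends exceeded their own interior in none of the 4 libraries at 4 ends in Nip, against 44.2% of all windows, and at 3 in 93-11, against 37.4%.

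The densest Nip end was the far end of chromosome 7, with 139 and 135 peaks under Normal and 159 and 155 under HS. The sparsest was the start of chromosome 9, with 71 and 63 under Normal and 78 and 69 under HS. In 93-11 the densest was the start of chromosome 4, with 139 and 133 peaks under Normal and 92 and 95 under HS, and its Normal mean stood at percentile 99.5 of all windows. The sparsest 93-11 end was the far end of chromosome 11, with 60 and 55 peaks under Normal and 36 and 31 under HS.

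The cultivars were then compared end by end. Under Normal, 93-11 had fewer peaks than Nip at 18 of 22 ends, with a median ratio of 0.901, and under HS at 21 of 22, with a median ratio of 0.541. The interior of 93-11 held 79.4 peaks per Mb against 80.5 in Nip under Normal, and 61.3 against 96.8 under HS. A deficit of 93-11 under HS was thus not particular to the ends. The start of chromosome 4 stood apart, with 74 and 66 peaks in Nip Normal against 139 and 133 in 93-11 Normal, a ratio of 1.94. Over all 22 ends the Pearson r between the cultivars, given as a description, was 0.579 for the Normal means and 0.535 for the HS means. Without the start of chromosome 4, left out after its values had been seen, r was 0.892 and 0.758 for 21 ends. For the Normal means it was 0.925 across the 12 far ends and 0.0074 across the 10 start ends. Ends are not independent replicates, and the points share the library and the peak caller. The HS changes of the 2 cultivars did not follow each other across the 22 ends (r of -0.050).

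**Figure D4:**
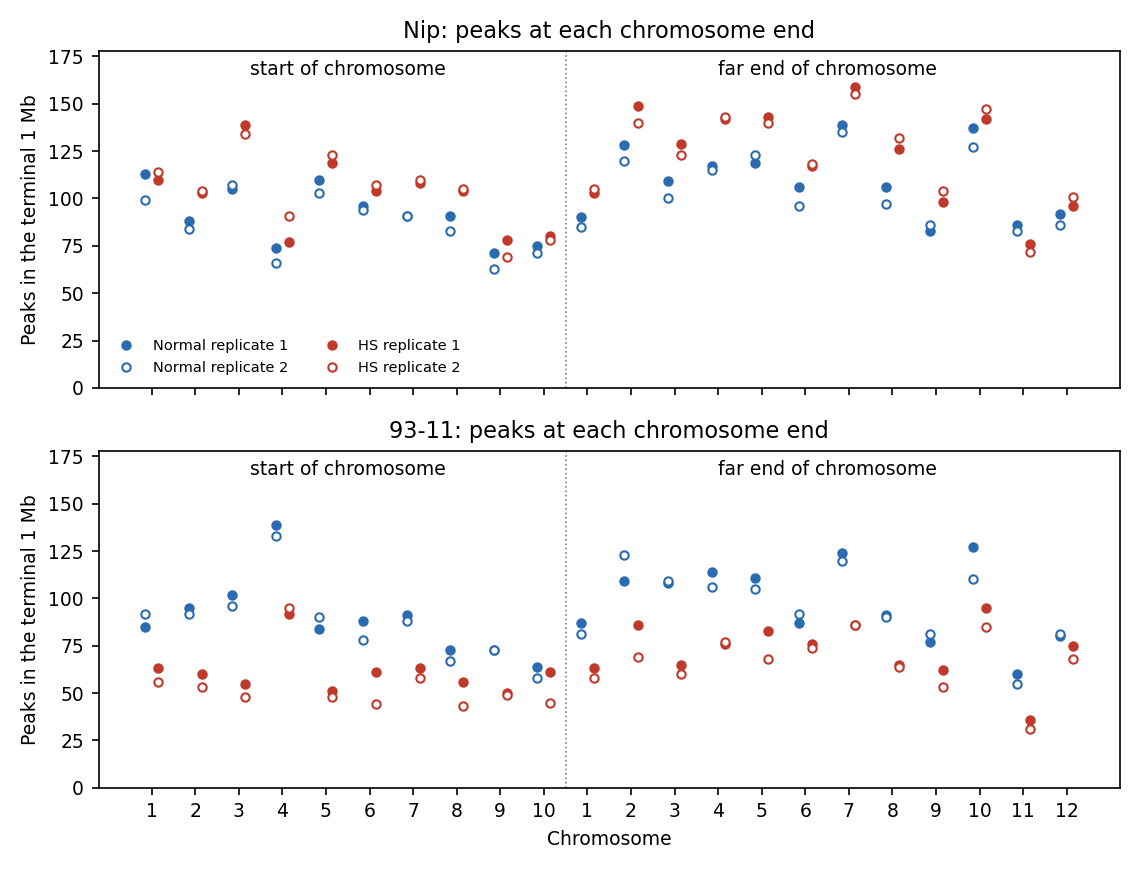
Number of peaks in the terminal 1 Mb of each chromosome, start ends to the left and far ends to the right of the dotted line, with Normal in blue, HS in red, filled circles for replicate 1 and open circles for replicate 2. In Nip the HS circles lie above the Normal circles at 19 of 22 ends, and in 93-11 they lie below at 21 of 22. The far end of chromosome 11 is the one Nip end where both HS libraries lie below.

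Nearly all ends followed the direction of their cultivar. In Nip both HS libraries lay above both Normal libraries at 19 of 22 ends, against 76.4% of all windows, and below both at 1 end, against 1.10%. In 93-11 both HS libraries lay below both Normal libraries at 21 of 22 ends, against 84.5% of all windows, and above both at none, against 0.263%. These shares are not far from those of the windows in general. The ends with overlap were the starts of chromosomes 1 and 9 in Nip and the start of chromosome 10 in 93-11.

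The exception in Nip was the far end of chromosome 11, where 86 and 83 peaks under Normal stood against 76 and 72 under HS, a change of -12.4%. At the same-named end of 93-11 the change was -41.7%. The largest rise in Nip was at the start of chromosome 3, from 105 and 107 to 139 and 134 peaks (28.8%). The start of chromosome 3 was also the end with the largest fall in 93-11, from 102 and 96 to 55 and 48 peaks (-48.0%). The smallest fall in 93-11 was at the far end of chromosome 12, from 80 and 81 to 75 and 68 peaks (-11.2%).

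The share of ends that lagged behind their own chromosome was larger than among windows in general. Relative to the interior density of the same chromosome and library, both HS libraries lay below both Normal libraries at 12 of 22 ends in Nip, against 31.9% of all windows, and at 16 of 22 in 93-11, against 23.7%. They lay above at 2 ends in each cultivar, against 29.7% and 20.8% of windows. The median end changed by -0.049 on this log2 scale in Nip (lowest -0.44, highest 0.16) and by -0.18 in 93-11 (-0.51 to 0.23). The medians over the interior windows were -0.015 and 0.010.

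**Figure D5:**
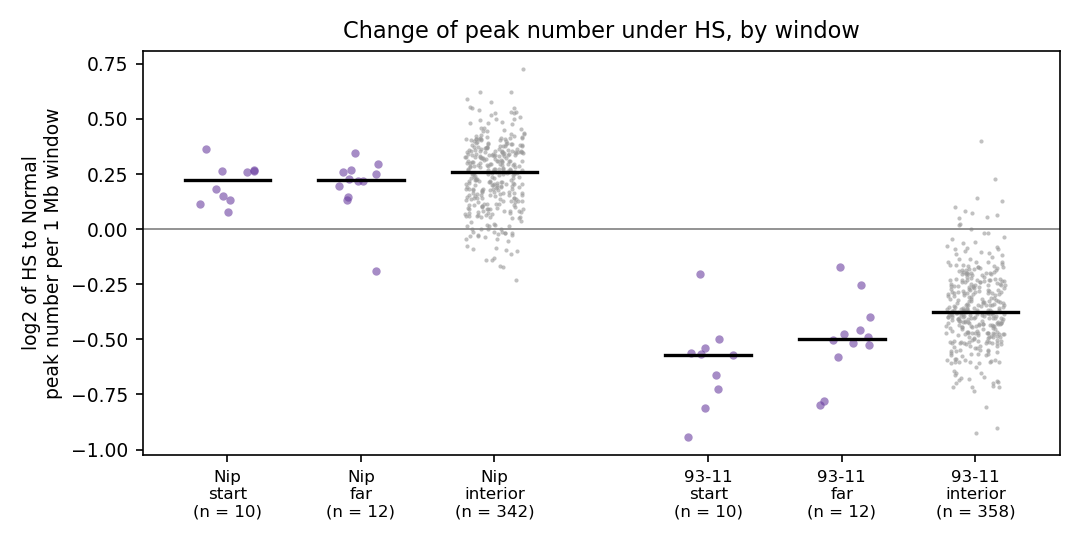
Log2 ratio of mean HS to mean Normal peak number for each 1 Mb window, with start and far ends in purple and interior windows in grey, a short black bar at each median and a line at no change. In 93-11 the ends (medians of -0.57 for start and -0.50 for far ends) sit below the interior median of -0.38. In Nip their medians are 0.22 for both against 0.26.

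Median widths moved with the cultivar at most ends as well. Peaks were wider in both HS libraries than in both Normal libraries at 20 of 22 Nip ends, against 76.1% of all windows, and narrower in both at 17 of 22 ends of 93-11, against 60.0%. The median width of an end under Normal ranged from 299.5 to 407.2 bp in Nip and from 247 to 323.8 bp in 93-11. Over all ends the median changed by 15.7% in Nip and by -13.8% in 93-11, and the interior by 15.0% and -11.8%. Relative to the interior the change was 0.0092 on the log2 scale in Nip and -0.033 in 93-11, with overlap between the libraries of the conditions (exact permutation p = 1 and 0.667).

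Whether the same places were open was examined by merging overlapping or touching peaks over the 4 lists of each cultivar. The ends held 3321 merged regions in Nip and 3371 in 93-11. In Nip 1499 of them, or 45.1%, had a peak in all 4 libraries, against 41.6% of all merged regions, and in 93-11 644, or 19.1%, against 17.1%. A peak in a single library was seen in 26.8% of the Nip and 48.4% of the 93-11 end regions, against 30.0% and 50.8%. These shares lie near those over all merged regions. Regions shared by all 4 libraries made up 46.3% of the far and 43.5% of the start end regions in Nip, and 21.6% and 15.9% in 93-11. Between replicates the bases covered at the ends overlapped with a Jaccard index (shared over joint covered length) of 0.566 for Normal and 0.636 for HS in Nip, and 0.423 and 0.373 in 93-11. Across conditions it was 0.499 to 0.507 in Nip and 0.277 to 0.295 in 93-11. In the interior the replicate indices were 0.555, 0.636, 0.405 and 0.343 in the same order.

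Regions found in both libraries of one condition and in neither of the other were then counted. In Nip the ends held 85 Normal-only regions (2.56%, against 2.08% of all merged regions) and 300 HS-only regions (9.03%, against 10.1%). In 93-11 they held 427 Normal-only regions (12.7%, against 10.4%) and 88 HS-only regions (2.61%, against 3.17%). The ratio of HS-only to Normal-only regions was 3.53 at the Nip ends and 4.98 in the Nip interior. The inverse ratio was 4.85 at the 93-11 ends and 3.17 in the 93-11 interior. The shares at the ends lie near those over all merged regions, and their order against the interior was not stable. In 93-11 the Normal-only share at the ends was below that of the interior at 4 times the background (8.54% against 9.13%) and among the strongest peaks (8.40% against 8.83%). In Nip it was below without Normal replicate 1 (8.42% against 8.74%) and at 10.3% against 10.4% without Normal replicate 2, and with 2 Mb windows the HS-only share was above that of the interior (10.2% against 10.0%). Without a Normal replicate, a Normal-only region needs a peak only in the other, a looser rule applied alike to ends and interior.

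HS-only regions outnumbered Normal-only regions at 21 of 22 Nip ends, against 90.7% of all windows, and the exception was again the far end of chromosome 11, with 9 Normal-only and 4 HS-only regions, an order seen in 6.59% of all windows. Normal-only regions outnumbered HS-only regions at 22 of 22 ends of 93-11, against 96.3% of all windows, and the opposite order, seen in 2.37% of windows, occurred at none. Condition-only regions were mostly weak in Nip, where the median peak lay at percentile 22.3 for Normal-only regions in replicate 1 and at 29.2 and 30.7 for HS-only regions, against 62.7 to 67.2 for end regions found in all 4 libraries. In 93-11 they lay at 54.0 and 51.7 for Normal-only and 47.6 and 36.4 for HS-only regions, against 77.0 to 82.7.

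The regions with the strongest and most regular peaks were named by a fixed ranking on the lowest list percentile. In Nip, far ends held 897 of the 1499 end regions with a peak in all 4 libraries, and 1936 of all 3321 end regions. The leading ones were at far ends. The first was on chromosome 6 from 30449051 to 30449786, with −log10 p of 177.6 and 163.9 under Normal and 168.7 and 176.1 under HS. The second was on chromosome 4 from 35204861 to 35205651, with 149.7 and 160.7 under Normal and 166.1 and 175.4 under HS. The third was on chromosome 6 from 30845161 to 30845986, with 166.0 and 138.8 under Normal and 147.3 and 143.1 under HS. Their rank and their presence in both conditions follow from how they were chosen. The widest shared region of the Nip ends covered 2484 bp on chromosome 12 from 26765758 to 26768241.

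In 93-11 the 3 leading regions lay side by side at the very start of chromosome 10. They spanned 11633 to 12598, 13556 to 14796 and 12831 to 13150. The first had −log10 p of 418.8 and 482.8 under Normal and 366.2 and 447.9 under HS, and the second 525.9 and 500.9 under Normal and 329.9 and 384.9 under HS. Each 93-11 list had 5 peaks in the first 20 kb of this chromosome, and the strongest of them was between sixth and ninth of all chromosomal peaks. Of the 23 to 37 strongest peaks of a list, taken as the same top share of each, 3 or 4 lay at this start end in each 93-11 library, and the other 21 ends together held 0, 0, 0 and 1. In Nip no end held such a peak. The widest shared region of the 93-11 ends covered 2072 bp on chromosome 4 from 783057 to 785128 and was weak, at percentiles 28.4 to 73.3.

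The leading condition-only regions were weaker. In Nip the first Normal-only region, on chromosome 2 from 812253 to 812476, had −log10 p of 56.2 and 59.0. The second spanned 26770186 to 26770384 of chromosome 12 (25.3 and 17.9), and the third 28664789 to 28665249 of chromosome 7 (20.4 and 16.9). The leading HS-only region of Nip spanned 28984305 to 28984764 of chromosome 5 (29.1 and 33.6). It was followed by 42595973 to 42596585 of chromosome 1 (26.8 and 27.2) and 23123702 to 23124121 of chromosome 10 (29.5 and 26.9). Of these 6 regions, that on chromosome 2 lay at a start end and the others at far ends. Far ends held 47 of the 85 Normal-only and 176 of the 300 HS-only regions of the Nip ends.

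In 93-11 the leading Normal-only regions were all at start ends, which held 193 of the 427 Normal-only and 1485 of all 3371 end regions. These leading regions spanned 520880 to 521081 of chromosome 4 (25.1 and 38.2), 762837 to 763248 of chromosome 6 (20.3 and 23.0) and 753704 to 754134 of chromosome 5 (19.1 and 18.6). Its HS-only regions had lower values, with 10.9 and 10.4 at 28832857 to 28833033 of chromosome 8, 8.70 and 11.9 at 689534 to 689933 of chromosome 7, and 8.42 and 8.33 at 28411128 to 28411382 of chromosome 8. A peak of the opposite condition lay 224 bp from the third Normal-only region and 255 bp from the third HS-only region of Nip, and 393 bp from the second Normal-only region of 93-11. For the others the distance was at least 1063 bp.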

How the data were processed

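The authors deposited 1 peak list per library, with replicates not pooled, each line holding a position, a name and 1 value. According to the methods, reads were trimmed with Cutadapt, mapped with Bowtie2, filtered with SAMtools and Picard, and peaks were called with MACS2 at an adjusted p of 0.05. The submitters' processing notes instead name BWA 0.7.10-r789, with SAMtools 0.1.19, deepTools 2.0 and MACS2 2.1.1. The genome build and any Tn5 shift are not given in the sources used here. The deposited value has no header and was read as a −log10 p, since 28.2% to 37.6% of the values in each list lay within 0.0005 of a Poisson upper tail at a whole pileup for a single rate. That rate, fitted to the 12 most frequent values, served as the background rate. Positions are counted from 1. A gene annotation or sequence of the builds was not used here, so regions carry no gene names.

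Terminal windows were fixed by position. Ends and interior were compared with an exact sign-flip permutation test over libraries (256 sign patterns for 8 libraries), conditions with an exact permutation test over the 6 assignments of 4 libraries, and cultivars by permuting conditions within each (36 assignments). All tests were two-sided, and p-values measure the spread between libraries. Background shares were taken over the 22 ends and all whole 1 Mb interior windows, or over all merged regions. Named regions were ranked by the lowest within-list percentile over the libraries that held them. The members, windows and rankings were chosen with earlier results of these data known. Alternatives changed the window size, the membership rule, the interior, the peak threshold and the libraries used. The computation used Python 3.11.15 with numpy 2.4.6, pandas 2.3.3 and scipy 1.17.1 and was tested on simulated data. The background rate was recovered there once the simulated lists held at least 12 frequent tail values, and a first simulation without them failed, so the alternative set by the rate rests on that condition.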

Additional observations from a re-analysis of the deposited data

Results flagged for a closer look

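The HS change of peak number at the ends went in opposite directions in the cultivars, with a log2 change of 0.21 in Nip and -0.54 in 93-11, and Normal and HS libraries did not overlap in either. The difference of 93-11 minus Nip was -0.75, and 2 of 36 assignments of the condition labels within cultivars reached it (exact permutation p = 0.0556, the smallest possible). The median width at the ends did the same, with 0.21 in Nip and -0.21 in 93-11, a difference of -0.42 (exact permutation p = 0.0556). Both measures moved as the background rate did, whose part was not tested. The interior showed the same opposition in peak number, with a difference of -0.64.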

How the results depend on the processing

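Of 338 values recomputed under alternatives, 250 kept their direction, their side of the threshold or their size, and the cause of the other moves was not tested. The 338 include values under the replicate block, which cannot alter the size of a change. They also include values with any base in the window counted, which equalled the main ones. The lists carry no read counts, so depth limits every peak number by an unknown amount. The smallest p of a comparison between 2 and 2 libraries is 0.333. For the per-cultivar values of ends against interior, a move within 1 SD of the 4 libraries was counted as no change, a choice made after the values were seen, and the Nip width ratio, near 0, changed sign under some of those alternatives (lowest -0.014).

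Against the adjoining 1 to 2 Mb the log2 density ratio was -0.068 in Nip, -0.082 in 93-11 and -0.075 together, the width ratio -0.045 in 93-11 and -0.030 together, and the rank difference -2.95, -3.68 and -3.31 points. Against 1 to 5 Mb the density ratio was 0.020, 0.0043 and 0.012, the width ratio -0.041 in 93-11 and -0.020 together, the rank difference -3.35, -2.80 and -3.08, and the Normal difference between cultivars 0.0067. With windows of 0.5 Mb the density ratio was 0.16 in Nip, start against far ends -0.23 in Nip, the width ratio together -0.011, the rank difference -3.50 in Nip, 0.954 in 93-11 and -1.27 together, and the Normal difference between cultivars 0.017. With windows of 2 Mb these were 0.32, -0.29, 0.032 (p = 0.0234 in the exact sign-flip test), 1.56, 8.20 and 4.88 (p = 0.00781 in that test), respectively.

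At 4 times the background the density ratio in 93-11 was 0.30, start against far ends -0.38 in Nip and -0.46 in 93-11, the width ratio -0.051 in 93-11 and -0.025 together, the rank difference -3.80, -0.646 and -2.22, and the Normal difference between cultivars 0.017. Among the 10000 strongest peaks the density ratio was 0.16 in Nip and 0.29 in 93-11, start against far ends -0.53 in both cultivars, the width ratio -0.045 in 93-11 and -0.018 together, and the rank difference -5.42, -1.62 and -3.52. There, with the list total fixed, the change at the ends under HS was -0.13 in Nip. In the same setting the cultivar difference in the relative change was 0.052 and the Normal difference between cultivars 0.099. At a −log10 p of at least 5 the width ratio together was -0.013, the rank difference -1.89 in Nip and 3.41 in 93-11, and start against far ends -0.31 in Nip. Start against far ends in Nip was -0.24 from the smallest peak start and -0.24 with chromosomes 11 and 12 included.

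The HS change of relative width in Nip was -0.019 at 4 times the background, -0.025 for the strongest peaks, -0.021 at a −log10 p of 5, -0.020 against 1 to 2 Mb and -0.024 for mean width.

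In 0.5 Mb windows the Nip ends held 46 Normal-only (2.86%, against 2.05% in the interior) and 140 HS-only regions (8.71%, against 10.1%). Those of 93-11 held 236 (13.6%, against 10.2%) and 54 (3.11%, against 3.18%). In 2 Mb windows the counts were 168 (2.46%, against 2.02%) and 695 (10.2%, against 10.0%) in Nip. For 93-11 they were 817 (12.1%, against 10.1%) and 185 (2.73%, against 3.24%). Counts grow with the window, so only the shares can be compared. At 4 times the background 93-11 had 116 Normal-only regions (8.54%, against 9.13% in the interior), and among the strongest peaks 97 (8.40%, against 8.83%). Among the strongest peaks Nip had 66 HS-only regions (7.11%, against 9.55%).

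Leaving out each library in turn gave 130 to 327 Normal-only and 423 to 564 HS-only regions in Nip and 556 to 970 and 140 to 440 in 93-11. With a library left out, its condition is judged by the other replicate alone, which is a looser rule. These counts therefore cannot be set against the 85 and 300 of Nip and the 427 and 88 of 93-11 with all libraries. The rank difference with a library left out was -0.48 to 0.076 points in Nip and 5.08 to 5.75 in 93-11, and the density ratio 0.25 to 0.28 and 0.11 to 0.17. The HS change of relative width lay between -0.028 and 0.046 in Nip, turning without Normal replicate 2, and between -0.079 and 0.013 in 93-11, turning without HS replicate 1.

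Replicate numbers carry no stated pairing, and the differences between replicates 1 and 2 correlated by -0.033 in Nip and 0.16 in 93-11 across windows. With the replicate number as a block the relative changes of peak number stayed at -0.057 and -0.17, and the exact permutation p was 0.5, the smallest with 2 pairs. Blocking does not alter a difference of means, and with or without it no p could pass the threshold of 0.05, so no call could change.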

Other observations

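The first 1 Mb of chromosomes 11 and 12, which entered no comparison above, together held 215 and 193 peaks in Nip Normal and 218 and 231 in Nip HS. In 93-11 they held 192 and 186 peaks under Normal and 116 and 115 under HS. Among the 316 merged regions of these tips in Nip, 10 were Normal-only (3.16%, against 2.08% of all merged regions). HS-only were 18 of them (5.7%, against 10.1%). Among the 319 in 93-11, 51 were Normal-only (15.99%, against 10.4%) and 5 HS-only (1.57%, against 3.17%). Whether these shares differ from those over all merged regions was not tested.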
